A study of Mus musculus with 3 samples.

Results

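Nuclear receptors are transcription factors that bind DNA through a domain of paired zinc fingers and, in many cases, are switched by a small fat-soluble ligand such as a steroid, thyroid hormone, vitamin D, an oxysterol or a fatty acid. The set described here is the receptors other than the retinoic acid receptors (RARs), 43 genes listed by symbol. A gene was measured where the array's annotation gave it a probe set with that symbol alone. That held for 41 of the 43 genes, each with 1 probe set, out of 19938 named genes in all. Nr1h2 and Nr2e3 are not analysed here.

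The series measured RNA on Affymetrix arrays from ureteric bud cells, the epithelium that invades the kidney mesenchyme and branches into the collecting system. The 3 arrays form 1 group. Each holds RNA of 1 bud from a CD-1 mouse embryo 10.5 days post coitum (Theiler stage 18) carrying the transgene Tg(Hoxb7-EGFP)33Cos, whose green fluorescence in nephric duct and bud cells was the basis of the sort. Sex was recorded as unknown, no array has a second treatment, genotype or age, and the labels do not say whether the buds came from different embryos. Any p-value below therefore says nothing beyond these arrays, and for a gene with the same value on all of them, as 11 of the 14 receptors called below, it holds no spread of that gene's own signal.

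Receptors of this family work in a few modes. The retinoid X receptors (RXRs) are shared partners that pair with the receptors for thyroid hormone, vitamin D, fatty acids and sterols. Steroid receptors wait in a complex with heat-shock chaperones until hormone arrives and then bind DNA as pairs of themselves, while many orphan receptors bind without a known hormone. All of them act by recruiting coactivators or corepressors to chromatin. In the kidney the family is best known for later functions, such as the mineralocorticoid receptor in salt uptake by the collecting duct and HNF4A in the proximal tubule.

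All 12 markers of ureteric bud epithelium lay above background, as 53% of all named genes did, and mesenchyme and stroma markers did so in 2 of 12 (Col1a1 and Col3a1). Endothelial markers were above background in 9 of 12, with a list mean of 6.54, 5.86 and 6.89 log2 on arrays 1, 2 and 3. Erythroid markers were above in 4 of 7, with list means of 6.51, 5.46 and 6.24 log2. Leukocyte markers were above in 3 of 8, gonadal ridge in 2 of 6 and gut endoderm in 4 of 7. The erythroid and gut shares, 57.1% each, are near the 53% of all named genes. In such sorted pools, fewer cells using a gene and less RNA of it per cell cannot be told apart.

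Of the 41 measured receptors, 14 (34.1%) were above background and 27 were not. Among all named genes 53% were above background. A gene counted as above background when its mean signal exceeded the level of olfactory receptor probe sets (the 95th percentile of 1035 of them on each array, at 5.40, 5.45 and 5.41 log2) in limma's moderated one-sided test at an adjusted p under 0.05. The receptors' median signal was 4.98 log2, which is 0.44 below the background level (a difference of -0.44), while the median over all named genes was 5.64 log2, or 0.22 above it. The receptors above background were Nr2c2, Nr2f2, Nr2f6, Nr6a1, Ppard, Esrra, Nr1d2, Nr4a2, Rxra, Nr1d1, Rxrb, Hnf4a, Esrrg and Pgr. Signals of different genes come from different probes, so the order in this list sorts the genes and does not rank their RNA.

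**Figure D1:**
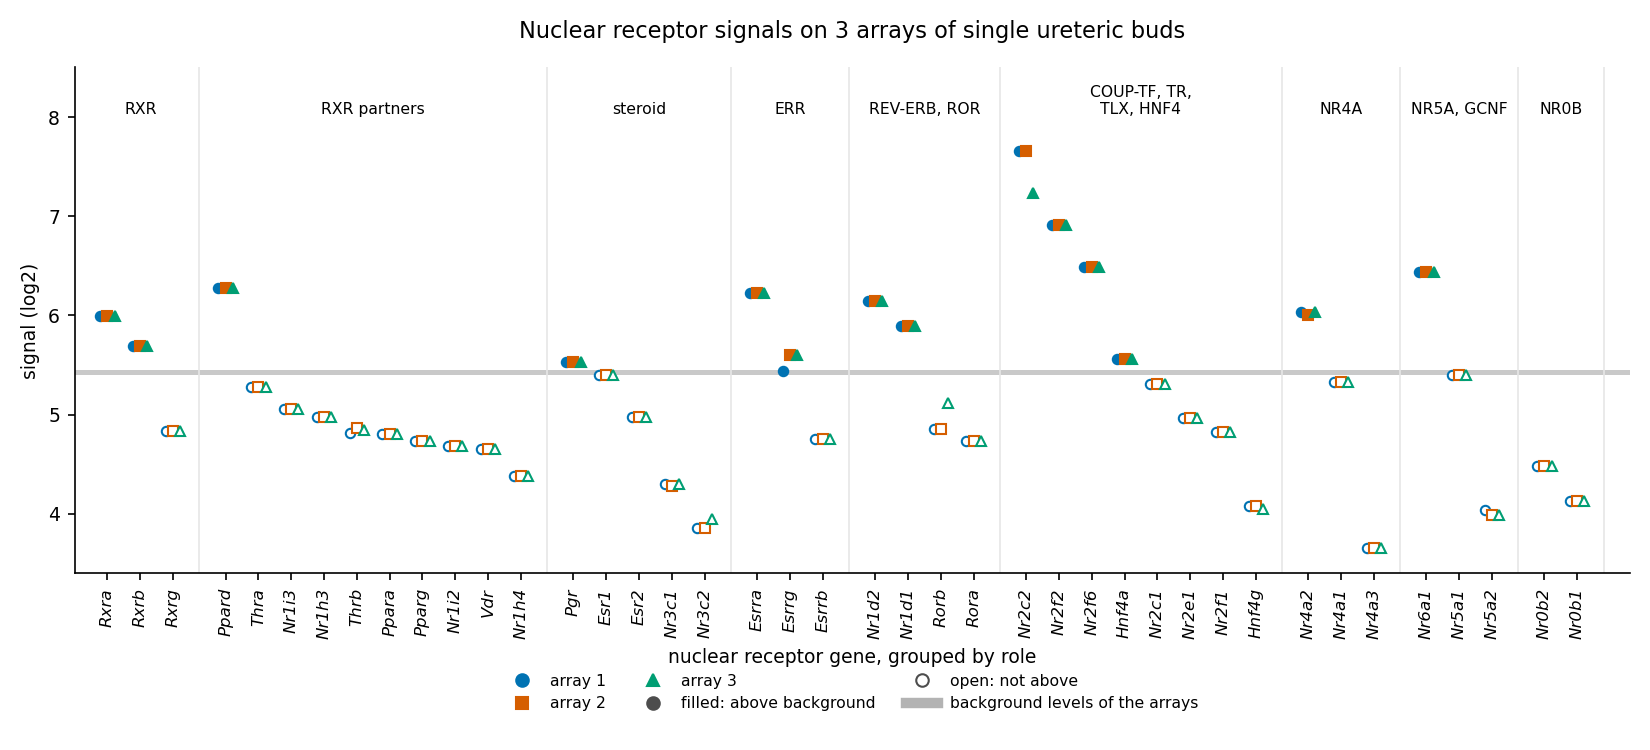
Signal (log2, vertical axis) of each of the 41 receptors on arrays 1, 2 and 3 (circle, square, triangle), grouped by role; filled symbols mark the 14 genes above background and the grey band spans the 3 background levels, 5.40 to 5.45 log2. Most genes show 3 symbols at 1 height, because 32 of the 41 hold an identical value on every array, and Nr2c2 shows the widest gap between arrays, 0.43 log2.

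The count depends on where background is set. With the 99th percentile of olfactory receptors, 6 of 41 receptors were above it (14.6%, against 35.3% of all named genes), and only Nr2c2 was (2.44%, against 21.1%) when the level was set by 84 probe sets of beta-defensins and keratin-associated proteins. With the 90th percentile there were 19 (46.3%, against 63.7%), the additions being Nr5a1, Esr1, Nr4a1, Nr2c1 and Thra. Vomeronasal receptors as background added the same genes (46.3%, against 65%). The receptors' share was below that of all named genes in the other settings as well. It was 40% of the 35 receptors kept by a filter on the dimmest probe sets (all genes 65%), 26.8% with an SD floor for identical values (51.1%), and 26.8%, 31.7% and 26.8% without array 1, 2 or 3 (48.5%, 52.8% and 48.8%). Quantile normalization, the highest probe set of a gene and a rule without a model each gave the same 34.1% (all genes 52.8%, 53.4% and 54%). Each receptor has 1 probe set, so taking the highest could not change a receptor's signal.

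A property of the deposited table bears on all of these values. The value was identical on all 3 arrays for 32 of the 41 receptors (78%), compared with 51.7% of all named genes. Of these 32 receptors 11 were above background (34.4%, against 43.1% of identical genes in all), and of the 9 that varied 3 were (33.3%, against 63.6%). Fitted without identical genes, 2 of the 9 were called (22.2%, against 63.1%). A further 8 receptors had the same value on 2 arrays and another on the third, and Thrb alone had 3 different values. The share of identical probe sets over the whole table changed with signal, from 53.2% at means of 5 to 6 log2 to 10.6% at 10 to 11 log2. Many values were also shared between genes within an array. On array 1, 32 of 41 receptors held a number that at least 1 other probe set held to every deposited digit (52.6% of all probe sets did), and on arrays 2 and 3 the counts were 30 and 31. Esr1 and Nr5a1 held the same number, 5.40 log2, on every array, each in common with 138 other probe sets on array 1, 156 on array 2 and 146 on array 3, the other gene of the pair included. Nr1h3 and Esr2 shared 4.98 log2, and Pparg and Rora shared 4.73. Just 8 receptors (19.5%) had a value of their own on every array, compared with 25.9% of named probe sets: Nr2c2, Nr4a2, Rxra, Rorb, Thrb, Nr3c1, Nr3c2 and Hnf4g. At the other end, 8 receptors shared their number with 100 or more probe sets on at least 1 array (Esr1, Nr5a1, Thra, Nr4a1, Nr1i2, Ppara, Nr5a2 and Esrrg), of which only Esrrg was above background. With probe sets that share a value left out, 3 of the 8 remaining receptors were above background (37.5%, against 80.5% of the genes left). What produced the repeated values was not tested. An identical value carries no measured spread between buds, so no SD is given for such genes.

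The promoters of these genes show a feature that the choice of genes did not use. Windows of 250 bases before annotated starts were taken from RefSeq (GRCm38.p6) for 37 of the 41 receptors, 54 windows in all, since some genes have several starts; Nr5a1, Thra, Nr3c1 and Hnf4g had none. CpG dinucleotides mark many promoters of broadly used genes. The ratio of observed to expected CpG had a median of 0.69 over 21 windows of receptors above background and 0.42 over 33 windows of the others. The same split over all named genes gave 0.73 (10688 windows) and 0.31 (8489 windows). Receptors thus had the direction of the difference that all genes had. Windows with a ratio of at least 0.6 made up 61.9% of those of receptors above background and 36.4% of those of the others, compared with 65.8% and 25.5% over all named genes. No test was made, as windows of 1 gene are not independent.

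**Figure D2:**
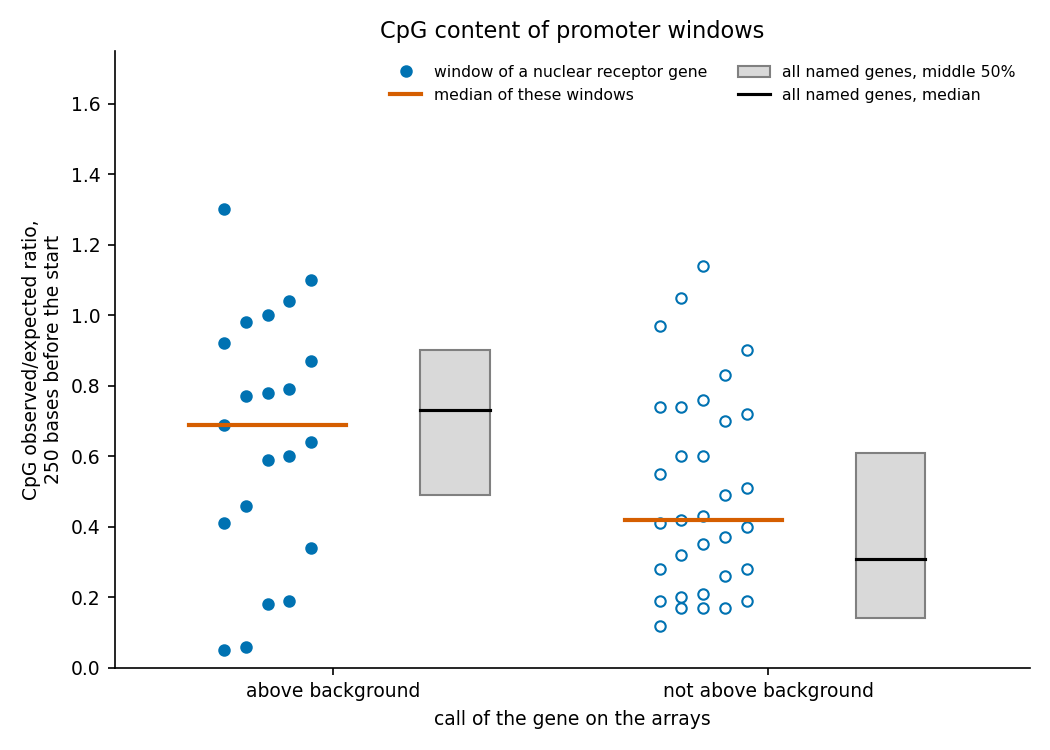
CpG observed/expected ratio (vertical axis, no unit) in the 250 bases before each annotated start, for 21 windows of receptor genes above background (filled) and 33 windows of receptor genes not above it (open). Orange lines are their medians, 0.69 and 0.42; grey boxes span the middle 50% of windows of all named genes, with black medians at 0.73 and 0.31.

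Windows are printed 5′ to 3′ with CpG dinucleotides in capitals, as examples of high and low ratios on either side of the call. They are not the extremes of the range. Those of genes above background are 1 of the 2 Rxra windows and that of Nr4a2 (CpG-rich), and that of Nr2f2 (CpG-poor). Those of genes not above it are of Nr4a1 (CpG-rich) and Nr1i2 (CpG-poor).
Rxra (chr2:27676951-27677200, plus strand): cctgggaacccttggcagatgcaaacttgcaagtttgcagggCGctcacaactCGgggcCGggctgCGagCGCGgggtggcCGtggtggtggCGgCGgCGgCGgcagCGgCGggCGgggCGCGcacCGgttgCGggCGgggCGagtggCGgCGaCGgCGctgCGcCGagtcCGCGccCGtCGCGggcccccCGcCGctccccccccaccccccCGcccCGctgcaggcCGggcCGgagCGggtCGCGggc
Nr2f2 (chr7:70366747-70366996, minus strand): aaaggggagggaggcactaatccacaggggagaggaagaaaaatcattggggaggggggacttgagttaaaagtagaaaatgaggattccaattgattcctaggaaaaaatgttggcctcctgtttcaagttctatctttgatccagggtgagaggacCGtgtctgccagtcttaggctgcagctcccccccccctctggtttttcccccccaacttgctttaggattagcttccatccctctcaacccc
Nr4a2 (chr2:57124004-57124253, minus strand): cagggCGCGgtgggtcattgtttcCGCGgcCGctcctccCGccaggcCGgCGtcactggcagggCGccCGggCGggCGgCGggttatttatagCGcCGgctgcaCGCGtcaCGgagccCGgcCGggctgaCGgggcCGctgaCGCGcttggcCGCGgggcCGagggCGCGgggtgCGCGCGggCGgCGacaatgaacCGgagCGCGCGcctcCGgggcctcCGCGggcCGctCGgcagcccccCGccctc
Nr4a1 (chr15:101266596-101266845, plus strand): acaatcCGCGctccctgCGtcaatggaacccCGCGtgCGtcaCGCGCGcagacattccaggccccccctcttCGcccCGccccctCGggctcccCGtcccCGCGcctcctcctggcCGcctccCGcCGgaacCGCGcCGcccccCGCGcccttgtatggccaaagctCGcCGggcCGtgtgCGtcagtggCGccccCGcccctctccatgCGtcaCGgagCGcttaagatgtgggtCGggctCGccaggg
Nr1i2 (chr16:38294825-38295074, minus strand): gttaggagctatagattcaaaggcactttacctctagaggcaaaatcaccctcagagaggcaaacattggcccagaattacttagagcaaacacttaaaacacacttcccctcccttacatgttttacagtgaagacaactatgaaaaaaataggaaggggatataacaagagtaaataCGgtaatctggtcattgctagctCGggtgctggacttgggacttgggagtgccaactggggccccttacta
The Rxra window, at the more upstream of its annotated starts, held 40 CpG dinucleotides (ratio 0.98). The other Rxra window, not printed, held 1 (ratio 0.05), so the gene has starts of both kinds. The Nr4a2 window held 44. The Nr2f2 window held 1, although Nr2f2 was above background, and the Nr4a1 window held 34, although Nr4a1 was not. The Nr1i2 window held 2.

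Short DNA words known from this family were counted on both strands in the same windows. AGGTCA, the hexamer at the core of most nuclear receptor binding sites, was in 10 of the 54 receptor windows (18.5%) and in 14% of all 32841 promoter windows. It was in 3 of 21 windows of receptors above background (14.3%) and 7 of 33 of the others (21.2%), compared with 10.9% and 14.3% for the same split of all named genes. CACGTG, the E-box bound by the clock activators, was in 4 of 54 (7.41%, against 6.02% of all windows), none of them of a receptor above background. Over all named genes CACGTG was in 8.33% of windows of genes above background and 5.3% of the others. TGACGTCA, the cAMP response element, was in 1 of 54, that of Nr2e1, against 1.55% of all windows. GGGCGG, a GC box, was in 24 of 54 (44.4%, against 32.7%); it contains a CpG and so overlaps the measure above. TATAAA was in 8 of 54 (14.8%, against 12.4%). Windows with AGGTCA (or its reverse complement) in capitals are shown for Nr1d2, which was above background, and Nr1h4, which was not.
Nr1d2 (chr14:18239107-18239356, minus strand): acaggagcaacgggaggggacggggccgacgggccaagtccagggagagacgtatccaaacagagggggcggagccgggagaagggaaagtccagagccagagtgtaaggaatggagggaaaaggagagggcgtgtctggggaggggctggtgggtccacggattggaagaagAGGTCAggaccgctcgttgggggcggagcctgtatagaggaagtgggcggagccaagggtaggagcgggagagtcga
Nr1h4 (chr10:89506659-89506908, minus strand): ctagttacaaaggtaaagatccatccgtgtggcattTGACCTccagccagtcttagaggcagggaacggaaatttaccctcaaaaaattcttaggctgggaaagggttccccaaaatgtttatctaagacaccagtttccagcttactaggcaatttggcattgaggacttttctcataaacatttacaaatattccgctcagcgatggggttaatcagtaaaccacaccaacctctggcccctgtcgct

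Of the RXRs, the partners on which much of the family depends, Rxra and Rxrb were above background and Rxrg was not. Rxra had a signal of 5.99 log2 on every array, 0.58 above the background level (limma, adjusted p = 4.94e-05), and no other probe set held its number. Of the 1035 olfactory receptor probe sets, 12 reached that signal. Rxrb was at 5.69 log2 on every array, 0.27 above the level (adjusted p = 0.000545), with 28 olfactory probe sets at or above it. Rxrg, the form used mainly in muscle and parts of the brain, was at 4.84 log2 on every array. At the 99th percentile neither Rxra nor Rxrb was above background.

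The receptors that bind DNA as dimers with RXR were above background in 1 of 10 measured members. This was Ppard, a broadly used fatty acid receptor, at 6.28 log2 on every array (0.86 above the level, adjusted p = 1.49e-05). Its relatives Ppara, which drives fatty acid breakdown in liver, and Pparg, which drives fat cell formation, were at 4.81 and 4.73 log2. The thyroid hormone receptor genes Thra and Thrb did not pass either. Thra was at 5.28 log2 on every array, the closest of this class to the level, and Thrb at 4.82, 4.87 and 4.85 log2. Vdr, the vitamin D receptor gene, was at 4.65 log2 on every array. The sterol and bile acid receptor genes Nr1h3 (LXR-alpha) and Nr1h4 (FXR) were at 4.98 and 4.38 log2, and the xenobiotic receptor genes Nr1i2 (PXR) and Nr1i3 (CAR) at 4.68 and 5.06 log2, each identical on every array. The retinoic acid receptors, RXR partners outside the set, were above background in 3 of 3, beside 1 of these 10 and 53% of all named genes. Rara was at 5.95 and Rarg at 5.79 log2 on every array, and Rarb at 7.24, 6.39 and 6.90 log2. The difference between these counts was not tested. With the 90th percentile the partner count was 2, Thra being the addition, and at the 99th percentile the RAR count was 1.

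Of the steroid hormone receptors, 1 of 5 was above background (20%, against 53% of all named genes), and that call was fragile. Pgr, the progesterone receptor gene, was at 5.53 log2 on every array, 0.11 above the level (limma, adjusted p = 0.0107), and 43 olfactory receptor probe sets reached it. It lost its call without array 1 (adjusted p = 0.414), without array 3 (adjusted p = 0.395) and when identical values were given an SD floor (adjusted p = 0.136). Its signal is the same on every array, so leaving 1 out changed the background levels used and limma's prior, not the signal. The prior SD over all genes was 0.05 log2 in the main fit. It was 0.18 without array 1 or array 3, and 0.014 without array 2, where the call held. The estrogen receptor genes Esr1 and Esr2 were at 5.40 and 4.98 log2 on every array. Nr3c1, the glucocorticoid receptor gene, was at 4.30, 4.28 and 4.30 log2. Nr3c2, the mineralocorticoid receptor gene, was at 3.86, 3.86 and 3.95 log2. Both have numbers shared with no other probe set, both lay more than 1 log2 below the level (-1.12 and -1.53), and 297 and 438 of the olfactory receptor probe sets reached them. Neither was above background under any alternative.

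Of the estrogen-related receptors, orphan regulators of mitochondrial and oxidative genes, Esrra and Esrrg were above background and Esrrb was not. Esrra was at 6.23 log2 on every array, 0.81 above the level (adjusted p = 1.77e-05). Esrrg was at 5.44, 5.60 and 5.60 log2 (mean 5.55 ± 0.10, SD, n = 3), with array 1 the low one, next to its own background level of 5.40 log2. Its call (limma, adjusted p = 0.035) was lost without array 1, 2 or 3 (adjusted p of 0.181, 0.172 and 0.441), with identical genes left out and with the SD floor. Esrrb, known from pluripotent stem cells, was at 4.76 log2 on every array.

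REV-ERB and ROR receptors compete for the same DNA sites in the circadian clock, REV-ERBs repressing and RORs activating. The REV-ERB genes Nr1d1 and Nr1d2 were above background and the ROR genes Rora and Rorb were not. Nr1d2 was at 6.15 log2 on every array (0.73 above the level, adjusted p = 2.37e-05) and Nr1d1 at 5.89 (0.47 above, adjusted p = 9.16e-05). Rora was at 4.73 log2 on every array. Rorb was at 4.86, 4.86 and 5.12 log2, array 3 being 0.27 above the others. Its highest array was still below the background level. At the 99th percentile neither REV-ERB gene was above background.

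Receptors of the COUP-TF, TR, TLX and HNF4 branch were above background in 4 of 8 measured members (50%, near the 53% of all named genes). Nr2c2, which encodes TR4, an orphan receptor that with TR2 represses embryonic globin genes, was at 7.66, 7.66 and 7.23 log2 (mean 7.52 ± 0.25, SD, n = 3), 2.10 above the level with a standard error of 0.10 (limma, adjusted p = 8.95e-05). Array 3 was the low one, and still 1 olfactory receptor probe set in all reached the mean. Nr2c2 was the single receptor above background in the main analysis and in all alternatives. Its TR2 counterpart Nr2c1 was at 5.31 log2 on every array and was not above background.

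The COUP-TF genes differed in call. Nr2f2 (COUP-TFII), known from venous endothelium and from the mesenchyme of many organs, was at 6.91 log2 on every array, 1.49 above the level (adjusted p = 3.5e-06). Nr2f6 was at 6.49 (1.07 above, adjusted p = 8.19e-06). Nr2f1 (COUP-TFI) was at 4.83 log2 on every array and was not above background. Endothelial markers are on these arrays too and fell on array 2, where Cdh5 was at 5.89 log2 against 8.22 and 8.07 on arrays 1 and 3, and Emcn at 6.73 against 8.37 and 9.55. Nr2f2 held 1 number on all 3, though that number has no measured spread. The part of endothelial RNA in its signal was not tested. Of the mesenchyme and stroma markers, Col1a1 (6.44 log2) and Col3a1 (6.02) were above background and the other 10, among them Pdgfra (4.94), Pdgfrb (4.48) and Tcf21 (4.65), were not. Their part in the Nr2f2 signal was not tested.

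Hnf4a, the regulator of liver, gut and proximal tubule epithelium, was at 5.56 log2 on every array, 0.14 above the level (limma, adjusted p = 0.00481). Its number was shared with 78 to 96 other probe sets, and 38 olfactory receptor probe sets reached it. The call was lost without array 1 or array 3 (adjusted p of 0.298 and 0.28) and with the SD floor (adjusted p = 0.0711). As for Pgr, leaving out an array did not change the signal of Hnf4a. Its relative Hnf4g was at 4.08, 4.08 and 4.05 log2. Of 7 genes known as HNF4 targets, 2 were above background (28.6%, against 53% of all named genes). These were Apoa1 at 6.01 log2 on every array and Slc2a2 at 5.58, 5.60 and 5.58. Apob was at 4.75 log2, Apoc3 at 5.09, 5.14 and 5.14, and neither passed. The HNF4 target count was 1 without array 1 and without array 3. Gut endoderm markers were above background in 4 of 7, near the 53% of all named genes. These were Shh (5.54 log2), Ihh (mean 6.22), Cdx1 (6.50) and Apoa1, which is on both lists. The Shh call was lost without array 1 or array 3. Cdx2 (4.94 log2), Foxa2 (mean 5.30) and Foxa3 (mean 4.92) were not above background. The part of gut endoderm RNA in the Hnf4a signal was not tested. Nr2e1 (TLX), a regulator of neural stem cells, was at 4.97 log2 on every array and not above background.

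The NR4A genes are immediate early genes that rise within minutes of many stimuli, and the cells here had been treated with trypsin and sorted. The part of this handling in the NR4A signals was not tested. Nr4a2 was above background at 6.03, 6.00 and 6.03 log2 (mean 6.02 ± 0.01, SD, n = 3), 0.60 above the level (limma, adjusted p = 6.71e-05), with a number shared by no other probe set. Nr4a1 was at 5.33 log2 on every array, 0.09 below the level (a difference of -0.09), and Nr4a3 at 3.66 on every array, with a difference of -1.76. Nr4a1 shared its number with 128 to 140 other probe sets. The promoters of Nr4a1 and Nr4a2 printed above are both CpG-rich, and neither window contained TGACGTCA.

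Of the NR5A and GCNF receptors, Nr6a1 (GCNF), an embryonic repressor of pluripotency genes, was above background at 6.44 log2 on every array (1.02 above the level, adjusted p = 9.31e-06). Nr5a1 (SF1), which defines steroid-producing cells of adrenal and gonad, was at 5.40 log2 on every array and did not pass. Of the gonadal ridge markers Gata4 (5.99 log2) and Wt1 (5.60, lost without array 1 or array 3) passed, and Lhx9 (4.80), Upk3b (5.40), Msln (4.68) and Amhr2 (5.23) did not. Nr5a2 (LRH-1) was at 4.04, 3.99 and 3.99 log2. The NR0B receptors lack the zinc finger domain and act by binding other receptors. Neither was above background, with Nr0b1 (DAX1) at 4.13 and Nr0b2 (SHP) at 4.48 log2 on every array.

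**Figure D3:**
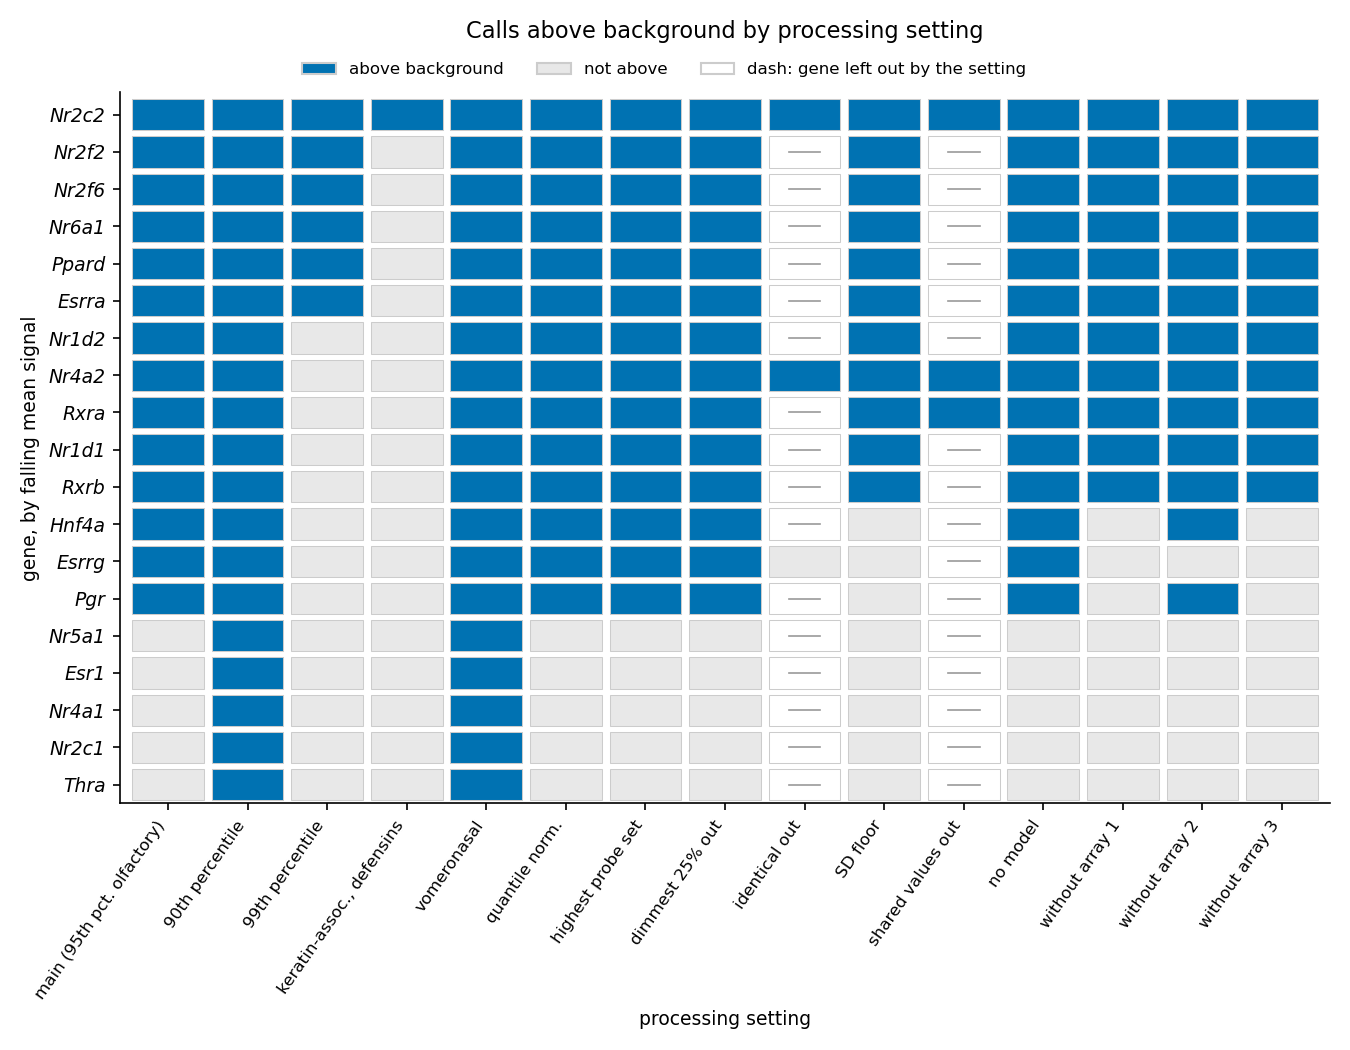
Call of each receptor (rows, by falling mean signal) under the main analysis and 14 alternatives (columns); blue is above background, grey is not, and a dash marks a gene that the alternative leaves out. Receptors called in the main analysis or in any alternative are shown; Nr2c2 is blue throughout, the 5 lowest rows are blue only with the 90th percentile or vomeronasal receptors, and Hnf4a, Esrrg and Pgr change most often among the 14 called genes.

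The proteins through which receptors act were above background in most members of each list, beside 53% of all named genes. Their difference from the receptors was not tested. Coactivators were above in 16 of 18 members, with a median of 7.06 log2. The p160 coactivator genes Ncoa1, Ncoa2 and Ncoa3 were at 5.60, 6.61 and 7.13 log2, each identical on every array. Kat2b (5.28 log2) and Ppargc1b (5.09), a partner of the estrogen-related receptors, were not above background. Its relative Ppargc1a was, at 6.18, 6.52 and 6.40 log2. Corepressors were above in 9 of 9 measured members, with a median of 7.98 log2. Nrip1, which restrains estrogen receptor and other receptors, was at 7.97 log2 on every array. Hdac3, the deacetylase of the nuclear receptor corepressor complex, was at 6.93, 6.09 and 6.03 log2, array 1 being the high one, and Tbl1x at 9.03, 8.86 and 9.03. Chaperones of steroid receptors were above in 10 of 10 measured members (median 10.57 log2). The first 3 measured genes of the list were Hsp90aa1, Hspa8 and Stip1. Hsp90aa1 was at 12.22, 12.20 and 12.12 log2, Hspa8 at 12.35, 12.03 and 12.13, and Stip1 at 10.28, 9.67 and 9.59. Hsp90ab1, also on the list, was not measured. Hsp90aa1, Hspa8, Ptges3 and Dnaja1 are means over several probe sets, and near-identical gene copies could share their signal.

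Enzymes that make, activate or remove ligands were above background in 4 of 14 measured members (28.6%, against 53% of all named genes). These were Hsd11b2, Hsd17b4, Cyp27a1 and Cyp7b1. Hsd11b2, which protects the mineralocorticoid receptor from glucocorticoids in the later collecting duct, was at 6.43 log2 on every array (limma, adjusted p = 9.43e-06). Its opposite Hsd11b1, which activates glucocorticoids, was at 3.97, 3.97 and 3.99 log2. Hsd17b4, a peroxisomal enzyme that also acts on steroids, was at 8.25, 8.19 and 8.57 log2. Cyp11a1, the first enzyme of steroid synthesis, was at 3.85 log2 on every array, and the thyroid hormone deiodinase genes Dio1, Dio2 and Dio3 at 3.42, 3.99 and 4.04.

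Genes known as targets were above background in 50% to 66.7% of members in the clock, glucocorticoid or mineralocorticoid, LXR or FXR, and PPAR or ERR lists, near the 53% of all named genes. The share was lower, 28.6%, among the HNF4 targets given above. Clock genes around REV-ERB and ROR were above background in 6 of 9, with Clock at 6.66, Per1 at 6.26 and Per2 at 6.17 log2 on every array. Of genes known as glucocorticoid or mineralocorticoid receptor targets, 5 of 10 were above. Tsc22d3 was at 6.33, 6.33 and 6.35 log2, Sgk1 at 5.19 on every array and not above, and Zbtb16 at 5.72. Scnn1a, Scnn1b and Scnn1g, the subunits of the sodium channel that mineralocorticoids control in the collecting duct, were not above background. Zfp36, which is also an immediate early gene, was at 6.08, 5.93 and 6.94 log2, a gap of 1.01 with array 3 high.

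LXR or FXR targets were above in 6 of 10, with the cholesterol exporter genes Abca1 at 5.33 log2 (not above) and Abcg1 at 5.83, and the lipogenic regulator gene Srebf1 at 6.39, each identical on every array. PPAR or ERR targets were above in 6 of 10. Of these, the fatty acid oxidation genes Acadm (7.09, 7.09 and 7.17 log2) and Acadl (6.52 on every array) were above background and Cpt1a (4.46) was not. Plin2, a lipid droplet coat gene, was at 7.48, 6.86 and 8.15 log2, 1.29 between the highest and lowest array. Most of these targets also have inputs other than the receptors named.

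**Figure D4:**
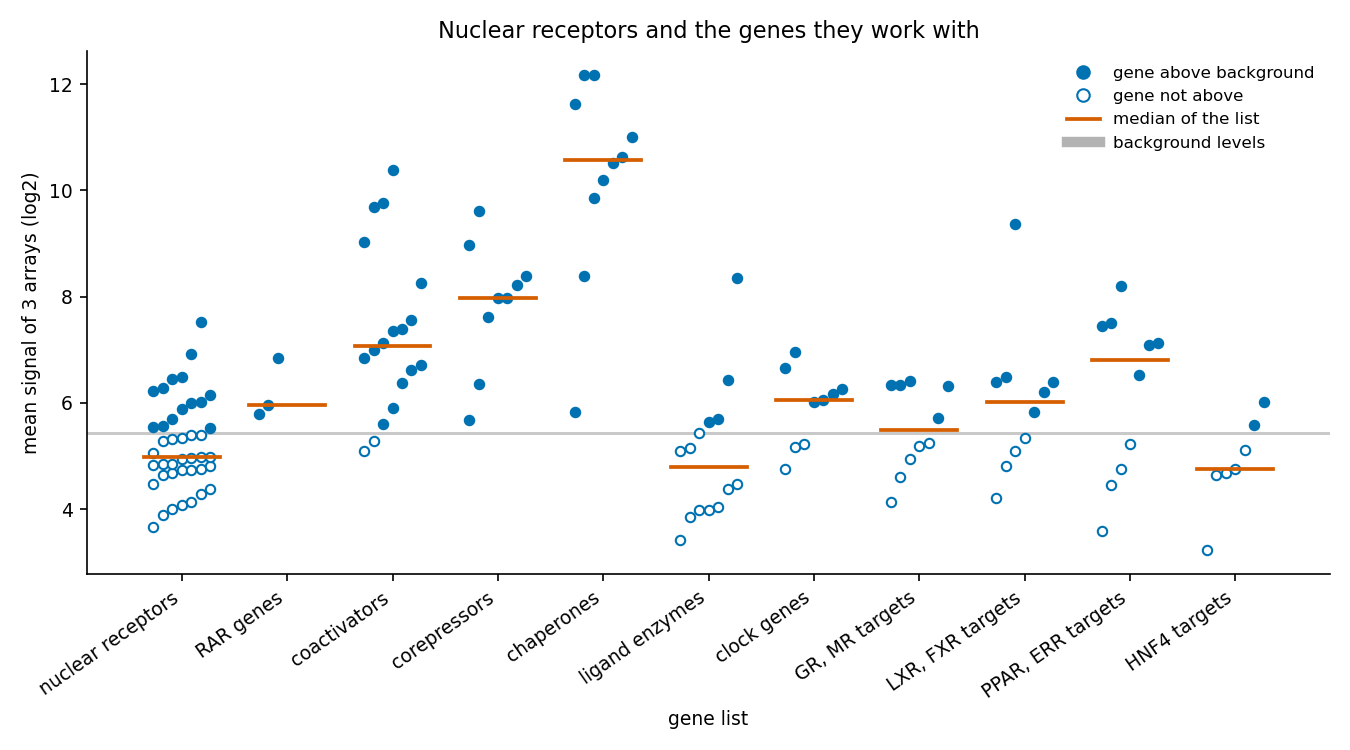
Mean signal over the 3 arrays (log2, vertical axis) of every measured gene in the receptor set and in the lists of genes it works with; filled points are above background, open points are not, orange lines are list medians and the grey band spans the background levels. All measured corepressors, chaperones and RAR genes are filled, while the receptor set has 14 filled and 27 open points and a median of 4.98 log2.

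Between buds, the receptors moved little in the deposited values. The highest and lowest array differed by more than 0.25 log2 in 2 of 41 receptors (4.88%), Nr2c2 and Rorb, compared with 19% of all named genes, and by more than 1 log2 in none, compared with 2.37%. Of the 9 receptors that were not identical, the median gap was 0.05 log2, against 0.18 for all named genes that were not identical. Array 3 was the odd one for Nr2c2, Rorb, Nr3c2 and Hnf4g, array 2 for Nr4a2 and Nr3c1, and array 1 for Esrrg and Nr5a2. Nr2c2 was low on array 3 while Rorb was high there, so the receptors did not share a direction. Identical values enter the shares over all receptors, but not the median gaps of genes that varied. They were more frequent at low signal over the whole table. Among genes above background, they made up 78.6% of receptors and 42.1% of all named genes.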

How the data were processed

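RNA of 3 samples was amplified in a single round, labelled with biotin and hybridised to Affymetrix arrays, per the labels' protocols. The authors deposited a table of log2 signals per probe set; the base was inferred from the range of the values. The submitters' processing notes name Affymetrix Expression Console; its version, the background correction, the normalization and the summary method are not given. Array medians were 5.47, 5.50 and 5.48 log2, and values were used as deposited.

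Gene names came from the platform annotation, and only probe sets listing a single symbol were used (21789 of 35557). Those of 1 gene were averaged. Each gene's signal minus the array's background level was fitted with limma 3.58.1 in R 4.3.3 (lmFit and eBayes, one-sided, Benjamini-Hochberg over 19938 genes). The fit was also run on simulated data, where every gene varied between arrays and genes not raised were set below the level. That run therefore does not check the calls of identical genes, or false calls of genes at the level. For genes identical on all arrays (within 1e-06 log2) the test's spread reflects only the 3 background levels and limma's prior. Each array is 1 bud, and their number limits the precision.

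Alternatives were other percentiles and background genes, quantile normalization, filters, an SD floor, a rule without a model and leaving out each array. All receptors are named; of every other list the first 3 measured genes, genes differing by over 1 log2 between arrays and lists of 5 or fewer were to be named, and further list and marker genes were named after their values were seen. The receptors and lists were chosen with earlier results of these data known. A planned description of zinc finger proteins was not made, as no protein sequences were used here.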

Additional observations from a re-analysis of the deposited data

How the results depend on the processing

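The count of 14 receptors above background stayed within 1.5 times under the 90th percentile, vomeronasal receptors, quantile normalization, the highest probe set, the filter on dim probe sets, the SD floor and the rule without a model (11 to 19). It was 6 at the 99th percentile, 1 with keratin-associated proteins and beta-defensins, and 11 to 13 without 1 array. With identical genes left out it was 2 of 9. Without probe sets that share a value, a setting chosen after seeing the data, it was 3 of 8 (Nr2c2, Nr4a2 and Rxra). Taking the highest probe set left every receptor signal as it was. The filter on dim probe sets left out only receptors not called in the main analysis. Neither setting changed the background level, so the count could move only through limma's prior and the adjustment over genes.

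By class, the 99th percentile gave 0 RXRs, 0 steroid receptors, 1 estrogen-related receptor, 0 REV-ERB and ROR genes, 0 NR4A genes, 2 ligand enzymes, 3 clock genes, 3 glucocorticoid or mineralocorticoid targets, 0 HNF4 targets and 1 RAR. Keratin-associated proteins and beta-defensins gave 0 RXRs, RXR partners, steroid, estrogen-related, REV-ERB and ROR, NR4A, NR5A and GCNF receptors, RARs, clock genes, HNF4 targets and glucocorticoid or mineralocorticoid targets. They gave 1 receptor of the COUP-TF, TR and HNF4 branch, 9 coactivators, 1 ligand enzyme and 1 LXR or FXR target. The 90th percentile gave 2 each for RXR partners, steroid, NR4A, and NR5A and GCNF receptors. Leaving out 1 array gave 0 to 1 steroid receptors, 1 estrogen-related receptor and 1 to 2 HNF4 targets. Over all named genes, 35.3% were above background at the 99th percentile and 63.7% at the 90th. With keratin-associated proteins and beta-defensins the share of all named genes was 21.1%. Without array 1, 2 or 3 it was 48.5%, 52.8% and 48.8%.

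Of the single-receptor values, 461 kept their call and 10 gained it. A further 13 lost the call with the mean still above the level. Another 19 lost it with the mean below the level. At the 99th percentile these were Nr1d1 (-0.17 log2), Nr4a2 (-0.05), Esrrg (-0.52), Pgr (-0.53), Rxra (-0.07), Rxrb (-0.37) and Hnf4a (-0.50). With keratin-associated proteins and beta-defensins they were Nr1d1 (-0.98), Nr1d2 (-0.71), Nr2f6 (-0.38), Nr4a2 (-0.85), Nr6a1 (-0.43), Esrra (-0.63), Esrrg (-1.32), Pgr (-1.34), Ppard (-0.58), Rxra (-0.87), Rxrb (-1.17) and Hnf4a (-1.31). Both settings use a higher level than the main analysis. The 10 gained calls came with the 90th percentile and vomeronasal receptors.

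No paired analysis was possible because the series has 1 group. The calls of Hnf4a, Esrrg and Pgr, 0.14, 0.13 and 0.11 log2 above the level, were each lost without at least 1 array. Hnf4a and Pgr, like Ncoa1, Cyp27a1 and Hr below, held 1 value on all arrays. Their losses came with other background levels and another limma prior, not with other signals. Calls farther from the level were lost too among the pathway lists: Slc2a2, Ncoa1 and Cyp27a1 (0.17, 0.18 and 0.22 log2) without array 1 or array 3, Hr (0.26) without array 1, and Nfil3, Zfp36 and Hdac3 (0.64, 0.90 and 0.93) without array 2.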
